A study of Mus musculus with 34 samples.

Results

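The 10 genes described here encode matrix glycoproteins and proteoglycans of the kidney interstitium: *Fn1*, *Tnc*, *Postn*, *Thbs1*, *Sparc* and *Fbn1* for glycoproteins, and *Vcan*, *Lum*, *Dcn* and *Bgn* for proteoglycans. They were taken by name from the 23509 genes of each deposited count table, and all 10 were found in each of the 34 tables. All 10 also passed the filter on low counts, which left 15644 genes for testing.

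Kidney polyadenylated RNA was sequenced at postnatal day (P) 28 from 34 C57BL6 mice in 3 groups. The untreated group (UNT, n = 12) was wildtype. The other groups were *Pkd2*-KO mice, which received PBS (n = 11) or RGLS4326 at 20 mg per kg of body weight (n = 11), both by subcutaneous injection on P10, P11, P12 and P19. RGLS4326 is a short, chemically modified oligonucleotide that is complementary to the seed of the microRNA miR-17. According to the study the *Pkd2*-KO model carries floxed *Pkd2* alleles and a Cre recombinase under the *Pkhd1* promoter, which is active in tubule cells of the kidney. No UNT mouse received an injection and no wildtype mouse received RGLS4326, so genotype and injection cannot be told apart in comparisons with UNT. The labels spell the knockout as "Pdk2KO".

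The targeted gene *Pkd2* had 220 to 338 CPM in UNT mice, 98.0 to 215 CPM in PBS-treated mice and 170 to 237 CPM in RGLS4326-treated mice, where CPM is counts per 1000000 reads in genes after TMM scaling, which corrects library sizes for differences in composition between libraries. PBS-treated mice were lower than UNT mice in *Pkd2* by a log2 fold change of -0.78 (standard error 0.09, edgeR quasi-likelihood test with Benjamini-Hochberg adjustment, adjusted p = 1.4e-09). By the same test, RGLS4326-treated mice were at 0.39 relative to PBS-treated mice (standard error 0.09, adjusted p = 0.00439). Relative to UNT mice they were at -0.39 (standard error 0.09, adjusted p = 0.000267). *Pdk2*, which encodes an unrelated mitochondrial kinase and is the gene named by the labels' spelling, was also lower in PBS-treated mice, at 86.8 to 152 CPM against 217 to 365 CPM. Reads assigned to genes ranged from 17603122 to 54981992 per library, and reads in no gene made up 9.84% to 11.3% of all that the read counter tallied in UNT libraries, 5.18% to 9.0% in PBS libraries and 4.94% to 12.0% in RGLS4326 libraries. The deposited tables are numbered in 3 series, called library sets 1 to 3 here, and each set held 3 or 4 mice of every group. Mice of 1 group were treated as independent replicates. The edgeR p-values set the difference between groups against the spread between mice within groups, estimated over all 3 groups together.

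The extracellular matrix is a mesh of collagen and elastic fibers in which glycoproteins connect fibers to each other and to cell-surface integrins, while proteoglycans carry long sugar chains that hold water, space collagen fibrils and bind growth factors. Fibronectin (*Fn1*) is laid down early in a healing or scarring tissue and gives collagen a scaffold. Tenascin-C (*Tnc*), periostin (*Postn*), thrombospondin 1 (*Thbs1*) and SPARC are matricellular proteins, which mainly modulate the contact of cells with matrix. Fibrillin 1 (*Fbn1*) forms the microfibrils that store latent TGF-β. In the kidney these proteins are made chiefly by fibroblasts, pericytes and mesangial cells, and also by injured tubule cells, and their accumulation between the tubules is the hallmark of fibrosis. The kidneys were sequenced whole, so a higher level can come from more cells of a type or from more RNA per cell, and these cannot be told apart.

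The sequence against which RGLS4326 is directed is shown because it sets what a direct target would carry. Mature miR-17 in RefSeq (GRCm38.p6, chr14:115043684-115043706, plus strand) has its seed, bases 2 to 8, in capitals here.
mmu-miR-17-5p: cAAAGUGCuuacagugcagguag
The match to this seed in a 3′UTR reads GCACTTT, or GCACTTTA with the A that follows it in the strongest class of site. The longest 3′UTR that GENCODE M21 (GRCm38) gives each of the 10 genes was searched. These ranged from 488 bases in *Dcn* to 2104 bases in *Thbs1*. Neither of the strings above nor CACTTTA, the longer string without its first letter, occurred in them (0 of 10 genes). By the same search, 3011 of 14193 tested genes with an annotated 3′UTR (21.2%) held at least 1 match. The median 3′UTR of those genes had 1150 bases. The absence of these letters says nothing of sites elsewhere in the transcripts.

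Promoter sequence is shown for 3 genes that moved differently: *Fbn1* and *Tnc*, both raised severalfold in *Pkd2*-KO kidneys, and *Vcan*, which was not called in any comparison over all mice. Each window runs from 250 bases before to 50 bases after an annotated transcription start in RefSeq on GRCm38.p6, and is written 5′ to 3′ on the strand of the gene. Capitals mark the letters GGGCGG or their reverse complement, the core bound by SP1, and the letters TATAAA on either strand.
Fbn1, chr2:125506389-125506688, minus strand: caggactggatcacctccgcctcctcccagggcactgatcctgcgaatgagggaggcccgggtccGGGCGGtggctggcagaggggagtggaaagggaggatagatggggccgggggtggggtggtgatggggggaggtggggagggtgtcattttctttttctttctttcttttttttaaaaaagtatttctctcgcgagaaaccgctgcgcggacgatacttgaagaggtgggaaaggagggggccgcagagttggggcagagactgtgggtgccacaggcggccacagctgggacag
Tnc, chr4:64046887-64047186, minus strand: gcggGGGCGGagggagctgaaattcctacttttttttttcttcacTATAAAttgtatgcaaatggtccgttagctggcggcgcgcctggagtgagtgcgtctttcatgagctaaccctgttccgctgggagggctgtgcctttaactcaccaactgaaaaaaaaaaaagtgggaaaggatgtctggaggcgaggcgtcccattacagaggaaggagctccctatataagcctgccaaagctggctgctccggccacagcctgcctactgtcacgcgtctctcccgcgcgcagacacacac
Vcan, chr13:89742463-89742762, minus strand: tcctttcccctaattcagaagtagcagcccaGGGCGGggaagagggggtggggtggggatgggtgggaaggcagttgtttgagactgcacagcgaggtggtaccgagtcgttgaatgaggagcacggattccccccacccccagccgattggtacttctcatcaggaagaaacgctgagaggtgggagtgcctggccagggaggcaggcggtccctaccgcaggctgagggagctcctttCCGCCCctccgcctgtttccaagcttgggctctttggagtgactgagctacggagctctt
The SP1 letters occurred in these windows in *Fbn1* (1 match), *Tnc* (1 match) and *Vcan* (2 matches), and the letters TATAAA in *Tnc* alone of the 3. RefSeq windows were at hand for 8 starts of 6 of the genes (*Fbn1*, *Tnc* and *Postn* among them, with *Sparc*, *Vcan* and *Bgn*), and 5 of these 8 windows held the SP1 letters, compared with 35.7% of all 32851 windows. The letters TATAAA occurred in 3 of 8 windows, 1 of *Postn* and 2 overlapping windows of *Tnc* that share the same match (as they share that of SP1), compared with 13.6% of all windows. None of the 8 held the AP-1 letters TGANTCA, present in 7.81% of all windows, or the TEAD letters GGAATG, present in 14.7%. Strings were searched on both strands, none of them contains another, and a match was counted wherever it lay in the window.

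Levels were first compared between the genes per kilobase of annotated exon, since longer transcripts give more reads. In UNT kidneys *Sparc* was the highest at 166 ± 34.5 CPM per kilobase (SD, n = 12), followed by *Bgn* at 40.9 ± 5.85, and neither range met that of the next gene. *Thbs1* (19.7 ± 3.43) and *Dcn* (15.5 ± 3.60) came next and overlapped each other, and *Vcan* was the lowest at 1.28 ± 0.37 CPM per kilobase. The order at the top was kept in PBS-treated kidneys, with *Sparc* at 637 ± 78.9 and *Bgn* at 253 ± 39.0 CPM per kilobase (n = 11). *Fn1* stood in the fifth place in UNT kidneys, at 10.2 ± 2.64, and in the third place in PBS-treated kidneys, at 103 ± 23.8 CPM per kilobase, where its range overlapped that of *Thbs1*. *Vcan* remained the lowest of the 10 in both *Pkd2*-KO groups. The 10 genes together took 0.117% ± 0.025 of the reads in genes in UNT mice, 0.702% ± 0.084 in PBS-treated mice and 0.684% ± 0.072 in RGLS4326-treated mice.

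**Figure D1:**
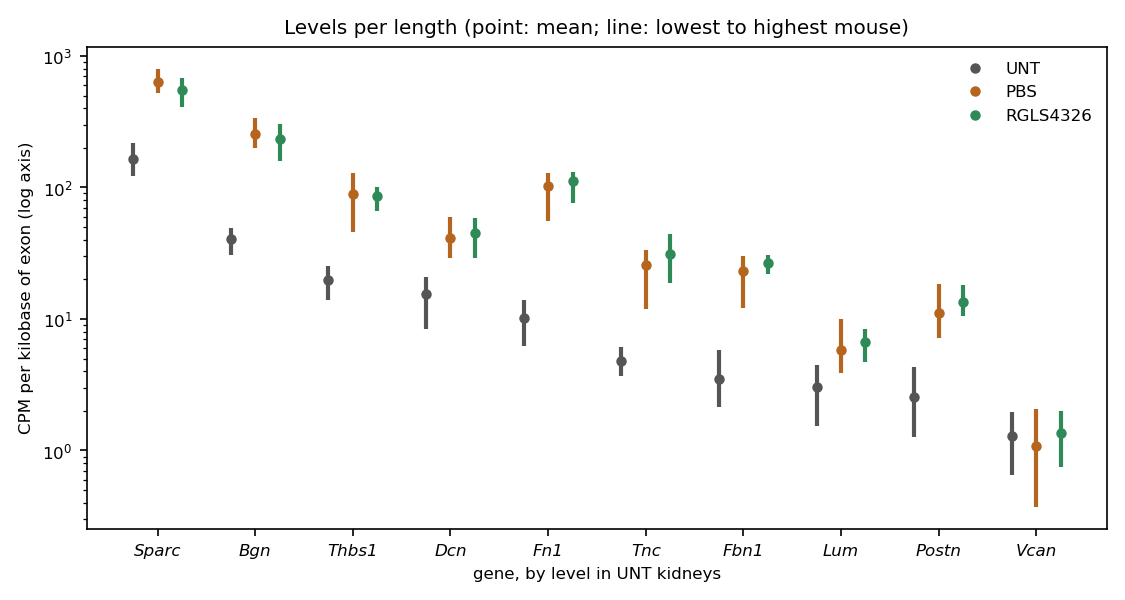
Level of each gene per kilobase of exon (y axis, log scale, TMM-scaled CPM per kilobase) in UNT, PBS-treated and RGLS4326-treated kidneys, with points for group means and lines from the lowest to the highest mouse. *Sparc* is highest and *Vcan* lowest in all 3 groups, and the lines of the *Pkd2*-KO groups lie above that of UNT for 8 of the genes (17.3% of all tested genes lie so), overlap it for *Lum* in PBS-treated mice and overlap it for *Vcan*.

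The first comparison asked which of these genes differ between polycystic and wildtype kidneys. Of the 10 genes, 9 were higher in PBS-treated *Pkd2*-KO kidneys than in UNT kidneys and none was lower (edgeR, adjusted p under 0.05 after Benjamini-Hochberg), from 1.91-fold for *Lum* to 10.1-fold for *Fn1*. *Vcan* was the exception. Most of the transcriptome differed in this comparison: 82.1% of the 15644 tested genes were called, and 43.1% were called higher. A share of 29.6% was called higher with a log2 fold change above 0.5, as were the same 9 of 10 genes. The median log2 fold change was 2.15 over the 10 genes and 0.04 over all tested genes. For 8 of the 10 every PBS-treated mouse was above every UNT mouse, as it was for 22.7% of all tested genes.

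Fibronectin had the largest fold change of the 10 genes. *Fn1* (chromosome 1, 71585520 to 71653200, minus strand, GRCm38) had 73.0 to 162 CPM in UNT mice, with a median of 121, and 649 to 1498 CPM in PBS-treated mice, with a median of 1311. RGLS4326-treated mice had 889 to 1534 CPM, with a median of 1355. Both *Pkd2*-KO groups lay wholly above UNT and overlapped each other over most of their range. The log2 fold change was 3.33 (SE 0.15, adjusted p = 3.56e-21) in PBS-treated and 3.46 (SE 0.15, adjusted p = 2.21e-21) in RGLS4326-treated kidneys relative to UNT.

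Among the matricellular genes, *Tnc* (chromosome 4, 63959785 to 64047015, minus strand) rose from 28.5 to 47.9 CPM in UNT mice to between 93.3 and 260 CPM in PBS-treated mice, with medians of 38.0 and 217. In RGLS4326-treated mice it had 145 to 346 CPM, with a median of 246, and 4 of these 11 mice were above the highest PBS-treated mouse. The log2 fold change of *Tnc* in PBS-treated relative to UNT kidneys was 2.41 (SE 0.15, adjusted p = 2.06e-16). *Postn* (chromosome 3, 54361109 to 54391037, plus strand) had 11.0 to 37.7 CPM in UNT mice, with a median of 21.2, and 62.9 to 160 CPM in PBS-treated mice, with a median of 92.1, a log2 fold change of 2.11 (standard error 0.16, adjusted p = 3.07e-14). Its RGLS4326-treated mice, at 92.3 to 158 CPM, were all above the median of the PBS-treated mice, but the single highest mouse was PBS-treated.

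*Thbs1* (chromosome 2, 118111876 to 118127133, plus strand), whose protein can activate latent TGF-β, had 85.4 to 153 CPM in UNT mice, with a median of 123. PBS-treated mice had 281 to 787 CPM, with a median of 588, and RGLS4326-treated mice had 404 to 613 CPM, with a median of 545. No *Pkd2*-KO mouse was as low as the highest UNT mouse, and the RGLS4326-treated values lay inside the PBS range. The log2 fold change of PBS-treated relative to UNT kidneys was 2.18 (SE 0.13, adjusted p = 2.16e-17). *Sparc* (chromosome 11, 55394500 to 55423183, minus strand), a collagen-binding protein, had 461 to 827 CPM in UNT mice (median 599), 1963 to 3019 CPM in PBS-treated mice (median 2399) and 1555 to 2584 CPM in RGLS4326-treated mice (median 2084). It was higher in PBS-treated than in UNT kidneys by a log2 fold change of 1.94 (standard error 0.10, adjusted p = 9.97e-19), again without overlap.

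The microfibril gene *Fbn1* (chromosome 2, 125300594 to 125507993, minus strand) had 26.1 to 70.2 CPM in UNT mice, with a median of 39.7. In PBS-treated mice it had 147 to 366 CPM, with a median of 305, and in RGLS4326-treated mice 268 to 375 CPM, with a median of 333. The lowest PBS-treated mouse was above the highest UNT mouse, and 2 of 11 RGLS4326-treated mice were above the highest PBS-treated mouse. The log2 fold change was 2.73 (SE 0.15, adjusted p = 5.3e-18) in PBS-treated kidneys relative to UNT. Exons of *Fbn1* overlap 2442 bases of a gene model on the opposite strand, *Fn1* shares 292, *Thbs1* 208 and *Tnc* 176 exonic bases with opposite-strand transcripts, and the strand setting of the counting was not given in the sources used here, so a part of their reads may be uncertain.

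Among the small leucine-rich proteoglycans, which coat collagen fibrils, *Bgn* rose the most. *Bgn* (biglycan, chromosome X, 73483602 to 73495933, plus strand) had 188 to 301 CPM in UNT mice (median 253), 1227 to 2045 CPM in PBS-treated mice (median 1571) and 965 to 1868 CPM in RGLS4326-treated mice (median 1445). Its log2 fold change in PBS-treated relative to UNT kidneys was 2.63 (SE 0.11, adjusted p = 4.58e-22). *Dcn* (decorin, chromosome 10, 97479609 to 97518143, plus strand) rose by a log2 fold change of 1.41 (standard error 0.13, adjusted p = 1.12e-12), from 49.2 to 123 CPM in UNT mice (median 90.8) to 169 to 351 CPM in PBS-treated mice (median 235). RGLS4326-treated mice had 169 to 340 CPM of *Dcn* (median 271), nearly the same range as the PBS-treated mice.

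*Lum* (lumican, chromosome 10, 97565128 to 97572703, plus strand) was low throughout, with 103 to 716 counts per library. It had 3.78 to 10.9 CPM in UNT mice (median 7.27), 9.53 to 24.6 CPM in PBS-treated mice (median 12.9) and 11.5 to 20.5 CPM in RGLS4326-treated mice (median 17.1). *Lum* was the only called gene of the 10 whose PBS and UNT ranges overlapped, with 9 of 11 PBS-treated mice above the highest UNT mouse, and its log2 fold change was 0.93 (SE 0.16, adjusted p = 2.46e-06). Within library set 2 alone it fell short of the threshold, at 0.28 (adjusted p = 0.0612), where the 4 UNT mice had 8.76 to 10.9 CPM. *Dcn* and *Lum* lie side by side on chromosome 10.

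*Vcan* (versican, chromosome 13, 89655312 to 89742509, minus strand), a large proteoglycan that binds hyaluronan, did not pass the test. It had 9.34 to 28.4 CPM in UNT mice (median 17.5), 5.36 to 29.9 CPM in PBS-treated mice (median 15.8) and 10.9 to 28.9 CPM in RGLS4326-treated mice (median 17.6). The 3 ranges overlapped. PBS-treated and UNT mice differed by -0.25 (log2, 95% confidence interval -0.65 to 0.16, adjusted p = 0.249), an interval that leaves out a rise of the size seen in any of the other 9 genes. In library set 3 alone *Vcan* was called lower in PBS-treated mice, by -0.93 (adjusted p = 0.0208), and in sets 1 and 2 the difference of means was 0.11 and 0.08 on the log2(CPM + 1) scale.

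**Figure D2:**
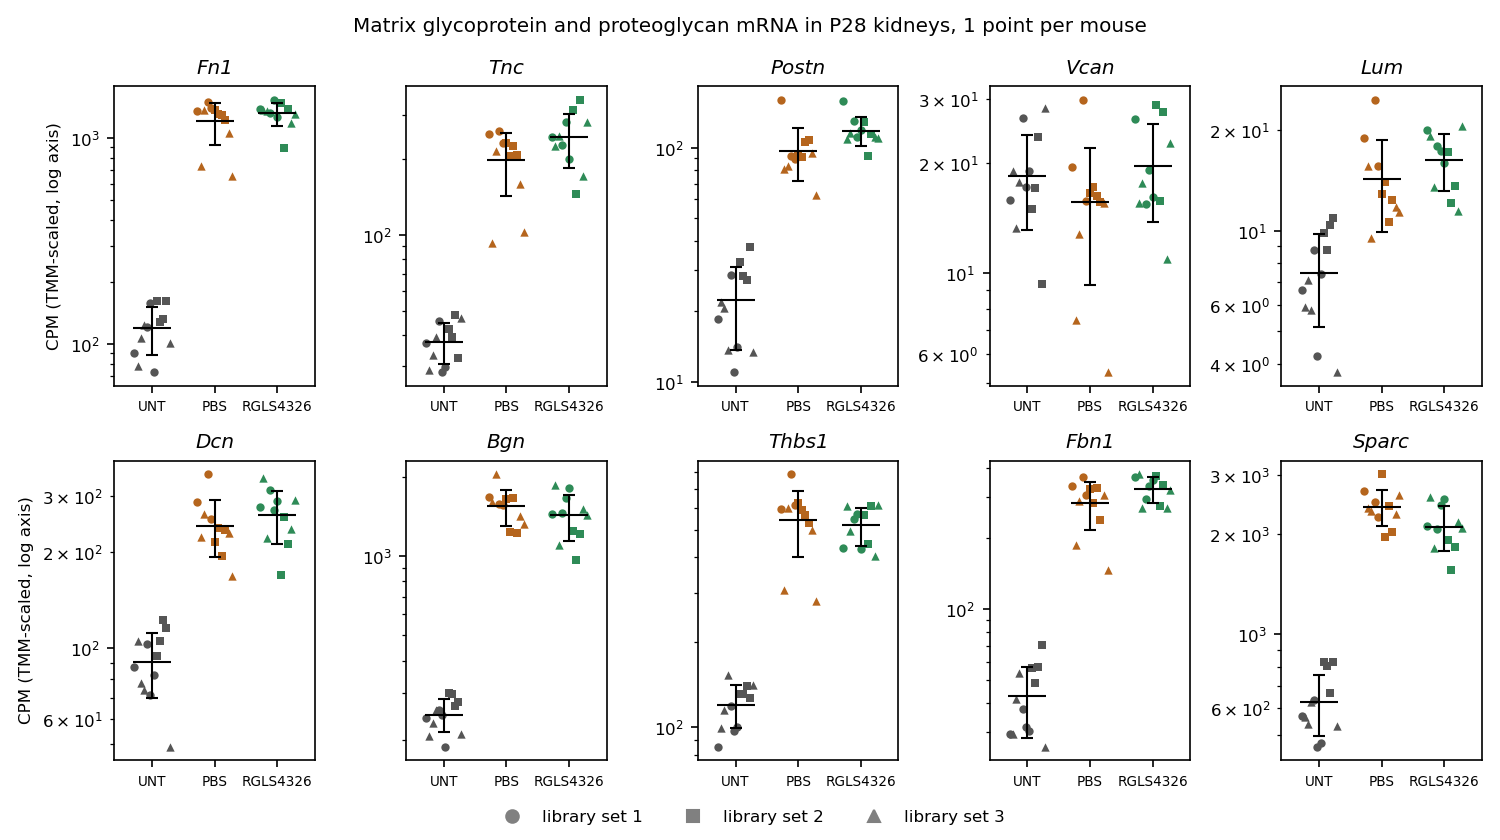
TMM-scaled CPM (y axis, log scale, own range in each panel) of the 10 genes in every mouse of the UNT (n = 12), PBS (n = 11) and RGLS4326 (n = 11) groups, with bars for the mean ± SD and marker shapes for the library set. PBS-treated and RGLS4326-treated mice lie above all UNT mice for 8 of the genes (17.3% of all tested genes) and overlap UNT for *Vcan*, and for *Lum* 9 of 11 PBS-treated mice are above the highest UNT mouse.

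The difference from UNT was also computed within each library set, as the difference of mean log2(CPM + 1). It was 3.73, 3.16 and 3.16 for *Fn1* in sets 1, 2 and 3, 3.34, 2.32 and 2.58 for *Fbn1*, and 2.62, 1.64 and 2.17 for *Postn*. Every PBS-treated mouse was above every UNT mouse of its own set for the 9 called genes in all sets, except for *Lum* in set 2, and 25.1% of all tested genes were separated in this way in all 3 sets. Differences were smallest in set 2 for *Sparc* (1.58, against 2.22 and 2.09), *Bgn* (2.31, against 2.78 and 2.79) and *Dcn* (1.01, against 1.77 and 1.55). In that set the 4 UNT mice stood high: *Sparc* was at 668 to 827 CPM, compared with 461 to 636 CPM in the other 8 UNT mice.

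The second comparison asked whether RGLS4326 changed these genes in *Pkd2*-KO kidneys. None of the 10 was called between RGLS4326-treated and PBS-treated mice by edgeR (0 of 10 at an adjusted p under 0.05, and 0 at an unadjusted p under 0.05), compared with 33.8% of all tested genes called, 15.3% higher and 18.5% lower. That background depended on the fit: this fit called 5280 genes, a fit with reads in no gene as a covariate called 89, and fits of library sets 1, 2 and 3 alone called 54, 4065 and 0, so that in the fits with few calls 0 of 10 does not set these genes apart. DESeq2 also called 0 of the 10, with 2 (*Sparc* and *Tnc*) at an unadjusted p under 0.05. Some other edgeR fits had 1 to 3 of the genes at an unadjusted p under 0.05: *Postn* and *Tnc* with the library set as a covariate or with the replicate block, *Postn* and *Sparc* with the 2 groups fitted alone, *Tnc* without the filter, *Thbs1* in set 1, *Bgn* and *Sparc* in set 2, and *Postn*, *Tnc* and *Vcan* in set 3. The lowest adjusted p of any of the 10 in these settings was 0.0505, for *Postn* with the 2 groups fitted alone. The point estimates were small, with a median log2 fold change of 0.16, and went both ways: 7 of the 10 were above 0 and 3 (*Bgn*, *Thbs1* and *Sparc*) below. Changes this small could be missed. On simulated counts with 11 mice per group, the same test recovered 61 of 100 randomly drawn genes changed by 0.5 (log2). It recovered 91 of 98 changed by 1. The simulation made 160 calls over 15578 genes, against 5280 calls in the fit above, so its cut on the unadjusted p was stricter. Its recovery therefore does not measure what the reported fit could miss.

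The glycoproteins nearest to the threshold were *Tnc*, at a log2 fold change of 0.30 (95% confidence interval -0.01 to 0.60, adjusted p = 0.119), and *Sparc*, at -0.20 (-0.41 to 0.01, adjusted p = 0.127). *Postn* was at 0.29 (-0.04 to 0.62, adjusted p = 0.152), *Fbn1* at 0.20 (-0.11 to 0.50, adjusted p = 0.302) and *Fn1* at 0.13 (-0.15 to 0.40, adjusted p = 0.48). *Thbs1* was nearest to 0 of all 10, at -0.07 (-0.33 to 0.19, adjusted p = 0.696). Of the proteoglycans, *Vcan* was at 0.33 (-0.08 to 0.74, adjusted p = 0.191), *Lum* at 0.19 (-0.14 to 0.52, adjusted p = 0.364), *Dcn* at 0.11 (-0.14 to 0.37, adjusted p = 0.492) and *Bgn* at -0.11 (-0.32 to 0.10, adjusted p = 0.4). For each of the 9 genes that were higher in PBS-treated than in UNT mice, the lower bound of this interval was -0.41 or higher, whereas PBS-treated kidneys exceeded the UNT level by 0.93 for *Lum* and 3.33 for *Fn1*. A p that misses the threshold does not show equal levels, and these intervals are the range the data allow.

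**Figure D3:**
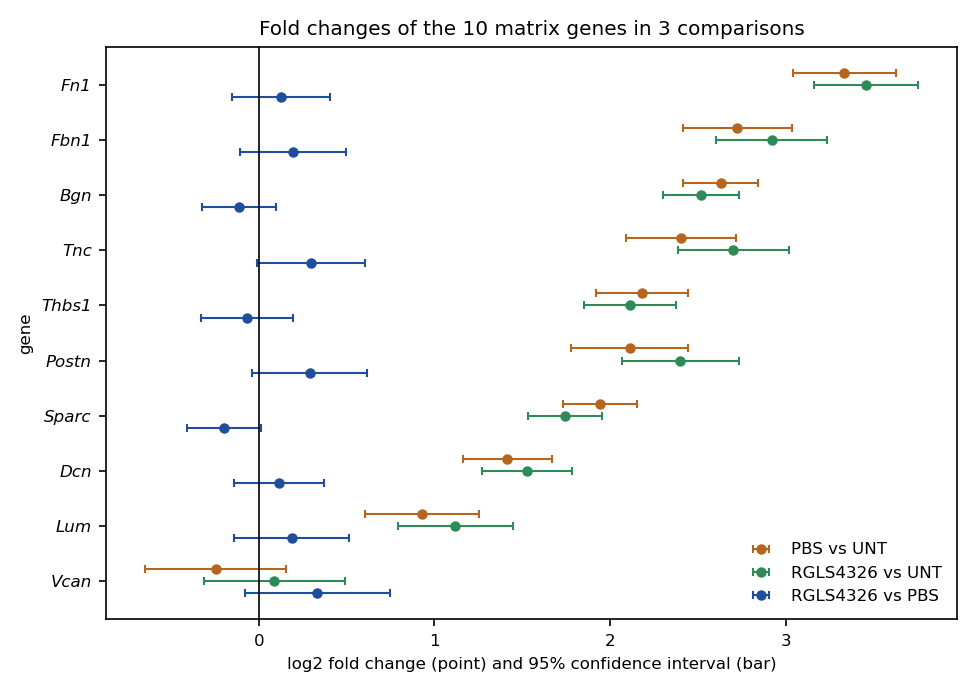
Log2 fold change (x axis) of each gene with its 95% confidence interval for PBS vs UNT, RGLS4326 vs UNT and RGLS4326 vs PBS from a single edgeR fit of 34 mice. The comparisons with UNT lie between 0.93 and 3.46 for 9 genes, while all 10 intervals of RGLS4326 vs PBS include 0.

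Relative to UNT, RGLS4326-treated kidneys were higher in the same 9 genes and not in *Vcan* (9 of 10, against 77.7% of all genes called and 40.8% called higher). The log2 fold changes were 2.92 for *Fbn1*, 2.70 for *Tnc*, 2.52 for *Bgn*, 2.40 for *Postn*, 2.11 for *Thbs1*, 1.74 for *Sparc*, 1.53 for *Dcn* and 1.12 for *Lum*, with SE of 0.10 to 0.16. Here *Lum* no longer overlapped: all 11 treated mice were above the highest UNT mouse, a separation seen in 20.7% of all tested genes. *Vcan* differed from UNT by 0.09 (95% confidence interval -0.31 to 0.49, adjusted p = 0.694). The comparisons of both *Pkd2*-KO groups with UNT share the UNT mice and are given side by side only.

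A pair of PBS-treated mice stood apart in a subset of the genes. PBS mice 9 and 10, both of library set 3, had 649 and 728 CPM of *Fn1*, while the other 9 PBS-treated mice had 1057 to 1498 CPM. For *Tnc* they had 103 and 93.3 CPM against 159 to 260 CPM, for *Thbs1* 281 and 305 CPM against 499 to 787 CPM, and for *Fbn1* 147 and 188 CPM against 240 to 366 CPM. *Vcan* was at 5.36 and 7.46 CPM in these mice and at 12.8 to 29.9 CPM in the others. *Sparc*, at 2622 and 2399 CPM, and *Bgn*, at 1318 and 1603 CPM, were within the range of the other PBS-treated mice. The treated group also held low mice. RGLS4326 6 was the lowest of its group for 5 of the 10 genes and RGLS4326 8 for 4. Each was among the lowest 2 for 6 genes, as PBS 9 was for 7 and PBS 10 for 6. *Fn1* was at 889 CPM in RGLS4326 6 and at 1187 to 1534 CPM in the other treated mice.

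Other lists moved in the same pair of mice. Their summed fibroblast and pericyte markers, 3734 and 3886 CPM, were the lowest 2 of the 11 PBS-treated mice, as were their summed matrix receptors (1117 and 1282 CPM). The highest summed macrophage (2875 CPM), T cell (27.8 CPM) and platelet (29.1 CPM) markers of the PBS group were in mouse 9. Mouse 10 ranked 7 of 11 from the lowest for macrophage and 9 of 11 for platelet markers. For the TGF-β list mice 9 and 10 ranked 6 and 5 from the lowest, and for proximal tubule markers 5 and 7. Their depth, 31362881 and 38467065 reads in genes, was within the range of the group, and the part of any of these in the low values was not tested. Without these 2 mice, an alternative chosen after the values were seen, *Fn1* was at 0.01, *Tnc* at 0.16, *Vcan* at 0.17, *Fbn1* at 0.08 and *Thbs1* at -0.19 (log2, RGLS4326 vs PBS), none of the 10 was called, and the same 9 genes were called higher relative to UNT. The low treated mice RGLS4326 6 and RGLS4326 8 were kept in that fit.

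**Figure D4:**
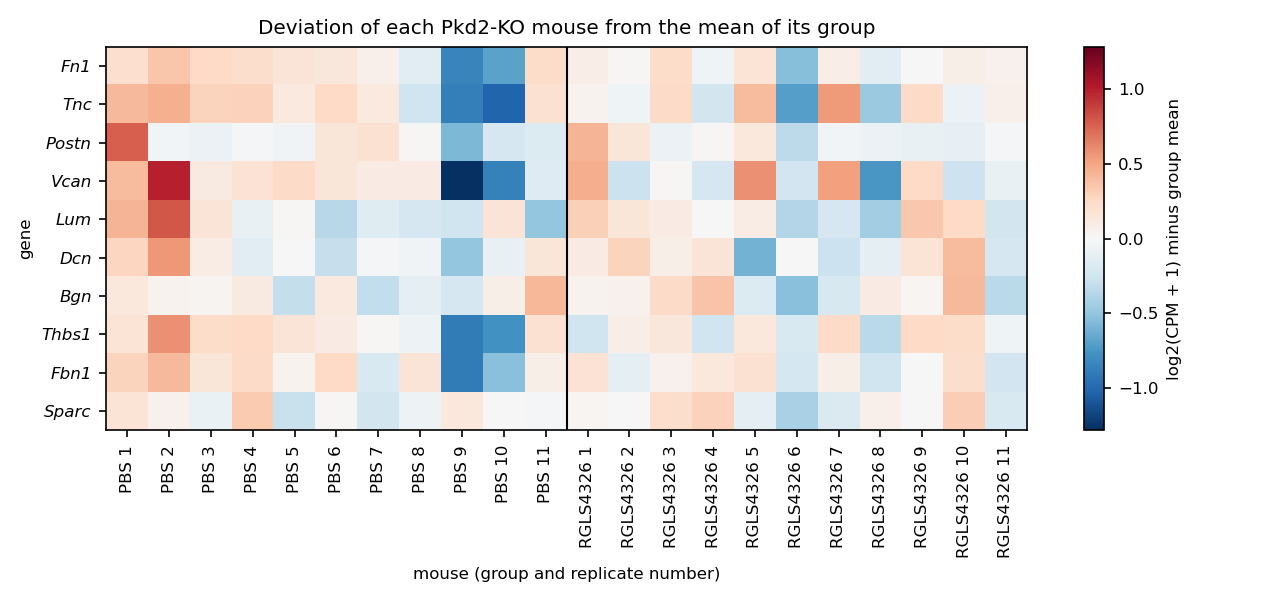
Deviation of each *Pkd2*-KO mouse (x axis, group and replicate number) from its group mean for each gene (y axis), in log2(CPM + 1), blue below and red above the mean. PBS 9 and PBS 10 are blue for *Fn1*, *Tnc*, *Vcan*, *Thbs1* and *Fbn1*, as low as -1.28 for *Vcan* in PBS 9, and near the mean for *Sparc*.

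The treatment difference was also computed within each library set. The difference of mean log2(CPM + 1) between RGLS4326-treated and PBS-treated mice in sets 1, 2 and 3 was -0.05, -0.09 and 0.52 for *Fn1*, -0.06, 0.20 and 0.75 for *Tnc*, and -0.43, -0.10 and 0.38 for *Thbs1*. *Postn* was higher in treated mice in each set, by 0.22, 0.15 and 0.48, and *Sparc* lower in each, by -0.12, -0.40 and -0.17. *Bgn* was also below 0 in every set (-0.02, -0.33 and -0.11). *Dcn* (-0.04, -0.07 and 0.29), *Lum* (-0.12, 0.18 and 0.38) and *Vcan* (-0.15, 0.48 and 0.71) differed in sign between sets, and *Fbn1* was at 0.01, 0.15 and 0.46. A test of whether the treatment difference itself varied between sets (edgeR, interaction of group and set) called 0 of 15233 genes, with 796 at an unadjusted p under 0.05. For the 10 genes its adjusted p was at least 0.865, and *Thbs1* had the lowest unadjusted p, 0.0539.

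Genes that vary together between mice of 1 group were examined next, as a relation that the choice of genes did not use. The 45 pairs of the 10 genes were correlated in each group on log2(CPM + 1), and the permutation tests of all 3 groups (100000 resamples, two-sided) were adjusted together. *Bgn* and *Sparc* ran in parallel in RGLS4326-treated mice, with Pearson's r of 0.989 (permutation p = 1e-05, the smallest they can give, adjusted p = 0.000675) and Spearman's rho of 0.973 (permutation p = 1e-05, adjusted p = 0.00135). Without the 2 mice farthest from the median of *Bgn*, r was 0.989, and after subtraction of the means of the library sets it was 0.979. Reads outside genes moved with both genes in these mice: the 2 mice with the lowest share of reads in no gene (4.94% and 6.14%) had the highest levels of *Bgn* (1807 and 1868 CPM) and of *Sparc* (2543 and 2584 CPM), and the 4 mice with the highest share (11.3% to 12.0%) had the lowest, at 965 to 1244 CPM and 1555 to 1924 CPM. The part of that share in the correlation was not tested. In UNT mice r was 0.831 (permutation p = 0.00089, adjusted p = 0.00858) and rho 0.846 (permutation p = 0.00083, adjusted p = 0.016), with r = 0.840 without the 2 farthest mice and 0.613 within sets. In PBS-treated mice the same pair had r = 0.499 (permutation p = 0.117, adjusted p = 0.243) and rho = 0.564 (permutation p = 0.0759, adjusted p = 0.233), with r = 0.593 without the 2 farthest mice. Whether the relation differs between the groups was not tested.

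In PBS-treated mice 6 of the 45 pairs passed by both measures, and all of them joined *Fn1*, *Tnc*, *Thbs1*, *Fbn1* or *Vcan*. The share of passing pairs among all tested genes was not computed, so the counts of pairs do not set these genes apart. *Fn1* and *Thbs1* had r = 0.984 (permutation p = 1e-05, adjusted p = 0.000675) and rho = 0.973 (permutation p = 2e-05, adjusted p = 0.00135). Without PBS 9 and PBS 10 their r was 0.878, and within sets it was 0.970. The relation of *Tnc* with *Vcan* in these mice rested in part on the same pair, with r = 0.890 (permutation p = 0.001, adjusted p = 0.009) and rho = 0.809 (permutation p = 0.00354, adjusted p = 0.0299), falling to r = 0.533 without them. The relations of *Tnc* with *Fbn1* (r = 0.890, and 0.476 without the pair) and of *Vcan* with *Fbn1* (r = 0.927, and 0.632 without it) fell likewise. In RGLS4326-treated mice 2 of the 45 pairs passed, *Bgn* with *Sparc* and *Tnc* with *Vcan*. The latter had r = 0.794 (permutation p = 0.00352, adjusted p = 0.0226) and rho = 0.827 (permutation p = 0.00235, adjusted p = 0.0272). Its r was 0.802 without the 2 mice farthest from the median of *Tnc*, and 0.838 within sets. In UNT mice 10 pairs passed, among them *Postn* with *Lum* at r = 0.879 (permutation p = 0.00017, adjusted p = 0.00427) and rho = 0.881 (permutation p = 0.00031, adjusted p = 0.0132), and r = 0.766 within sets. The permutations did not take account of the sets, and for others of the 10 pairs r fell further within sets, from 0.812 to 0.409 for *Fbn1* with *Sparc*, from 0.746 to 0.441 for *Lum* with *Sparc*, from 0.748 to 0.522 for *Lum* with *Fbn1* and from 0.784 to 0.532 for *Bgn* with *Fbn1*. Library sets held only 3 or 4 mice of a group, too few for a correlation of their own.

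For each gene, the 3 tested genes with the most similar deviations from group means over the 34 libraries are named with Pearson's r. *Fbn1* was nearest to *Col15a1* (r = 0.950) and *Col5a1* (r = 0.938), which encode collagens, and to *Pxdn* (r = 0.907). *Postn* was nearest to *Col3a1* (r = 0.880), followed by *Aoc3* (r = 0.818) and *Cav1* (r = 0.806). *Fn1* was nearest to *Mrc2*, a collagen uptake receptor (r = 0.856), *Gpr124* (r = 0.839) and *Col5a1* (r = 0.838), and *Tnc* to *Sulf1* (r = 0.858), *Thbs1* (r = 0.839) and *Lgi2* (r = 0.820). *Thbs1* was nearest to *Tnc*, then to *Synm* (r = 0.829) and *Fat1* (r = 0.829). *Bgn* was nearest to *Timp2*, a protease inhibitor (r = 0.862), *Sdc3* (r = 0.859) and *Sulf2* (r = 0.855), and *Sparc* to *C1qtnf6* (r = 0.857), *Stom* (r = 0.842) and *Fkbp10*, a collagen chaperone (r = 0.820). *Lum* was nearest to *Rhoj* (r = 0.764), *Sfrp4* (r = 0.759) and *Col3a1* (r = 0.759), and *Dcn* to *Itgbl1* (r = 0.813), *F13a1* (r = 0.753) and *Egflam* (r = 0.720). *Vcan* was nearest to *Tnc* (r = 0.787), *Osmr* (r = 0.696) and *Megf10* (r = 0.684). These are descriptions over libraries that share sets and depth.

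The other genes of the matrix were taken from lists of 42 further glycoproteins and 30 further proteoglycans. Of the 42 glycoproteins, 35 were higher and 6 lower in PBS-treated than in UNT kidneys, with a median log2 fold change of 1.50 (82.1% of all genes were called). The elastic-fiber genes *Ltbp2* (5.83), *Fbn2* (4.39) and *Mfap5* (4.36) rose the most, and *Tnn*, a tenascin related to *Tnc*, fell by 3.52, with *Vwa1* at -1.19 and *Ecm1* at -0.72. Of the 24 tested proteoglycans, 16 were higher and 6 lower, with a median of 0.62. *Spock2* (3.12), the syndecan *Sdc1* (2.80) and *Prelp* (2.31) were highest, and *Hapln1* (-2.46), a link protein that fastens proteoglycans such as versican to hyaluronan, *Omd* (-1.98) and *Aspn* (-1.57) lowest.

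Between RGLS4326-treated and PBS-treated kidneys 22 of these 66 genes were called, 10 higher and 12 lower, where 33.8% of all tested genes were called. The proteoglycan list held the link protein *Hapln1* (log2 fold change 1.08, SE 0.25, adjusted p = 0.0039), osteomodulin *Omd* (0.97, adjusted p = 0.00644) and asporin *Aspn* (0.94, adjusted p = 0.0031) among those higher in treated mice, and *Sdc1* (-0.60, adjusted p = 0.00263), *Agrn* (-0.31) and *Gpc1* (-0.31) among those lower. Among the glycoproteins *Hmcn1* (0.89, adjusted p = 0.00342), *Fbln5* (0.47) and *Matn2* (0.46) were higher, and *Comp* (-1.30, adjusted p = 0.0024), *Thbs4* (-0.91, adjusted p = 0.00161) and *Cilp* (-0.68, adjusted p = 0.0461) lower. *Comp* and *Thbs4* encode thrombospondins, like *Thbs1*. When reads in no gene entered the fit as a covariate, 3 of the 66 were called, and 0 within library set 1, 17 within set 2 and 0 within set 3 alone, fits in which 89, 54, 4065 and 0 of all tested genes were called. In RGLS4326-treated relative to UNT kidneys 51 of the 66 were higher and 9 lower (77.7% of all tested genes were called, 40.8% higher), *Ltbp2* (5.50), *Fbn2* (4.52) and *Mfap5* (4.21) again the most, with *Tnn* at -2.79, *Hapln1* at -1.38 and *Vwa1* at -1.12. Of the proteoglycans *Spock2* (2.80), *Sdc1* (2.21) and *Prelp* (2.10) were the highest in that comparison, and *Omd* (-1.01) and *Gpc4* (-0.64) followed *Hapln1*, while *Ecm1* was at -1.08.

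Cell-surface receptors of the matrix and the TGF-β pathway, which drives matrix genes in fibroblasts, were described in the same way. Of 10 receptors, 7 were higher and 2 lower in PBS-treated than in UNT kidneys, led by *Cd44* (4.08), the receptor of hyaluronan, and by the integrin genes *Itgb3* (1.82) and *Itga5* (1.45), with *Cd36* at -0.93 and *Itga8* at -0.29. This is 9 of 10, against 82.1% of all tested genes called. RGLS4326-treated mice were higher than PBS-treated mice in *Itga8* (0.63, adjusted p = 0.00114) and *Itga9* (0.29, adjusted p = 0.0337), both encoding integrins that bind tenascin-C, and these were 2 of 10, against 33.8% of all tested genes called. Relative to UNT they had *Cd44* at 3.96, *Itgb3* at 1.67, *Itga9* at 1.45 and *Cd36* at -0.90. All 10 TGF-β pathway genes were higher in PBS-treated kidneys, where 43.1% of all tested genes were called higher, among them the ligands *Tgfb3* (2.81) and *Tgfb2* (2.39). In RGLS4326-treated relative to PBS-treated mice 2 of the 10 were lower, *Tgfb3* among them (-0.31, adjusted p = 0.0281), and 8 were not called, with a list median of -0.08 (33.8% of all tested genes were called). Relative to UNT the treated mice had *Tgfb3* at 2.50 and *Tgfb2* at 2.29.

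**Figure D5:**
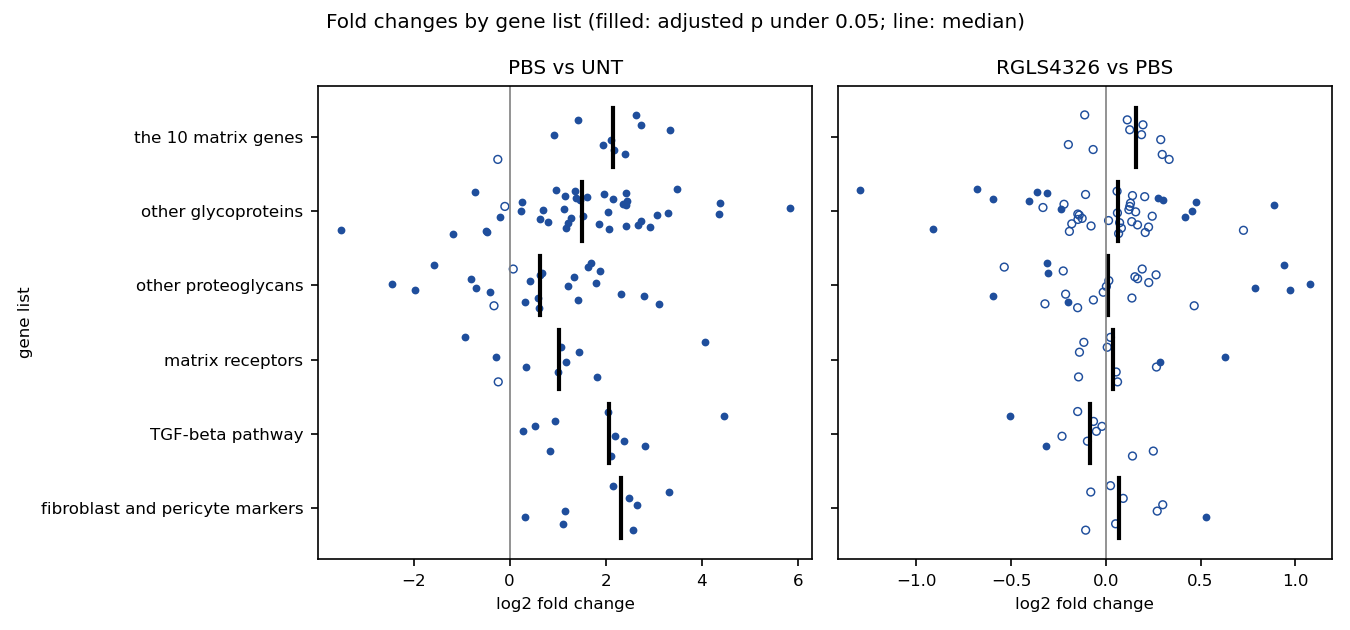
Log2 fold changes (x axis) of the 10 genes and of 5 other lists for PBS vs UNT and RGLS4326 vs PBS, 1 point per gene, filled where the adjusted p was under 0.05, with a line at the median of each list. Medians lie between 0.62 and 2.32 for PBS vs UNT and between -0.08 and 0.16 for RGLS4326 vs PBS, where all 10 points of the first list are open.

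Markers of the cells that make or surround the matrix were compared between the same 3 groups. All 8 fibroblast and pericyte markers were higher in PBS-treated than in UNT kidneys (82.1% of all tested genes were called, 43.1% higher), with *Col1a1* (3.32), *Col3a1* (2.66) and *Tagln* (2.56) the most, and their summed level was 711 to 1585 CPM in UNT, 3734 to 7475 CPM in PBS-treated and 4610 to 6789 CPM in RGLS4326-treated mice. Of these 8, only the receptor gene *Pdgfra* was called between the treated and PBS groups (0.53, adjusted p = 0.00265), where 33.8% of all tested genes were called, a share that fell in other fits as given above. Relative to UNT, treated mice had *Col1a1* at 3.24, *Col3a1* at 2.96 and *Col1a2* at 2.58. All 8 proximal tubule markers were lower in PBS-treated kidneys, where 82.1% of all tested genes were called in either direction, with *Miox* (-3.64), *Slc34a1* (-2.87) and *Slc5a2* (-2.79) the most, at summed levels of 11263 to 15318 CPM in UNT, 1180 to 3476 CPM in PBS-treated and 2291 to 3852 CPM in RGLS4326-treated mice. No marker of either list was at 0 in a whole group, and their part in the levels of the matrix genes was not tested.

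All 7 macrophage markers in the tables were higher in PBS-treated kidneys, with *Lyz2* at 5.52, *C1qa* at 4.50 and *C1qb* at 4.44, and 5 of them were lower in RGLS4326-treated than in PBS-treated mice, including *Cd68* (-0.80), *C1qb* (-0.61) and *C1qc* (-0.50). Their summed level was 110 to 186 CPM in UNT, 925 to 2875 CPM in PBS-treated and 850 to 1756 CPM in RGLS4326-treated mice. Platelet markers, of interest because platelets store thrombospondin 1, summed to 7.06 to 11.5 CPM, 12.9 to 29.1 CPM and 11.3 to 16.1 CPM in the same order, with *Pf4* at 3.51 and *Ppbp* at 3.01 in PBS vs UNT and *Itga2b* at -1.04. The kidney's own cells were present by their markers in every group: thick ascending limb markers summed to at least 2219 CPM, collecting duct to at least 539 CPM, podocyte to at least 354 CPM and endothelium to at least 363 CPM in each mouse. T cell markers summed to 3.14 to 27.8 CPM and adipocyte markers to 91.3 to 327 CPM over all mice. In PBS-treated relative to UNT kidneys both thick ascending limb markers were lower, all 6 collecting duct markers were higher, 4 of 5 podocyte and 4 of 6 endothelial markers were lower, and 3 of 4 T cell markers were higher (82.1% of all tested genes were called). The fifth podocyte marker, *Synpo* (0.83), and the other two endothelial markers, *Cdh5* (0.50) and *Pecam1* (0.30), were higher. In RGLS4326-treated relative to PBS-treated kidneys 6 of 8 proximal tubule markers were higher and the other two were not called, with a list median of 0.64 and *Slc5a12* (0.90, adjusted p = 0.00402), *Miox* (0.76, adjusted p = 0.0179) and *Lrp2* (0.64, adjusted p = 0.00984) the most. In the same comparison both thick ascending limb markers, 4 of 5 podocyte and 4 of 6 endothelial markers were higher, while 4 of 6 collecting duct, 3 of 4 T cell, 2 of 3 tested platelet and 1 of 3 adipocyte markers were lower (33.8% of all tested genes were called), and the other members of these lists were not called. The part of these lists in the levels of the 10 genes was not tested.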

How the data were processed

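Kidneys were flash frozen, and the authors prepared stranded mRNA libraries, trimmed the reads, aligned them by STAR to the GRCm38 (mm10) genome and counted reads with a unique alignment per gene. The submitters' processing notes name FastQC 0.11.2, Trim Galore, STAR, SAMtools 1.1, HTSeq 0.6.1 and Picard 1.119. The deposited values were raw counts per gene symbol, 1 table per mouse, without normalization or pooling. The gene annotation, and whether counting used strand, were not given in the sources used here. Uniquely mapped reads leave out sequence shared with near-identical copies.

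Counts were scaled by TMM and tested with the two-sided quasi-likelihood test of edgeR 4.0.16 (R 4.3.3) after filterByExpr, in a single fit of 34 libraries with 3 groups and no covariate. Benjamini-Hochberg adjustment ran over all 15644 tested genes, with calls at adjusted p under 0.05. Correlations used log2(CPM + 1). Reads of the counter's own totals (no gene, ambiguous, not unique) were left out of library sizes. No library pairs were identical (0). Tested on simulated counts for RGLS4326 vs PBS, the procedure made 160 calls over 15578 genes, of which 8 were false. Sequences came from RefSeq (GRCm38.p6) and 3′UTRs from GENCODE M21. Alternatives were other size factors, DESeq2 1.42.0, no filter, covariates, the replicate number as a block, the 2 groups compared alone, each library set alone and each library left out. Python 3.11.15 with numpy 2.4.6, pandas 2.3.3, scipy 1.17.1 and matplotlib 3.10.9 was used.

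Group sizes follow the labels, and the study's text gives a smaller PBS group. The 10 genes and all lists were chosen with earlier results of these data known. From each list up to 3 called genes in each direction with the largest log2 fold change were eligible to be named, and for each of the 10 genes the 3 most similar genes, besides *Pkd2* and *Pdk2*. A single gene of the TGF-β list is not reported here by name.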

Additional observations from a re-analysis of the deposited data

How the results depend on the processing

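Of the 10 genes, 9 were called relative to UNT in both *Pkd2*-KO groups and 0 between the treated groups under the other size factors, DESeq2, no filter, either covariate, the replicate block, the 2 groups compared alone and every one of the 34 fits without 1 library. Exceptions were library set 2, where *Lum* was lost (PBS vs UNT), and library set 3, where *Vcan* was called lower. Directions that turned were all of values that did not pass the test. For *Vcan* in PBS vs UNT they were 0.047 with total reads as the only scaling, 0.031 when reads in no gene entered the fit as a covariate and 0.10 in set 1, and in RGLS4326 vs UNT -0.055 in set 1 and -0.23 in set 3. For RGLS4326 vs PBS, set 1 gave -0.039 for *Fn1*, -0.044 for *Tnc*, -0.16 for *Vcan*, -0.14 for *Lum* and -0.041 for *Dcn*, set 2 gave -0.039 for *Fn1* and -0.036 for *Dcn*, set 3 gave 0.33 for *Thbs1*, and the fit with reads in no gene gave 0.057 for *Bgn*. Total reads as the only scaling moved the median of all genes in PBS vs UNT from 0.04 to 0.33, and the calls from 52.5% to 68.6% higher.

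Over all genes, RGLS4326 vs PBS gave 5280 calls, 89 when reads in no gene entered the fit as a covariate, 54 in set 1, 4065 in set 2, 0 in set 3 (2826 at an unadjusted p under 0.05, edgeR) and 3435 without PBS mice 9 and 10. Of the other matrix genes, 22 were called, 3 with that covariate, 0 in set 1, 17 in set 2 and 0 in set 3. The cause of these differences was not tested. Leaving out 1 library gave 4023 to 6209 calls over all genes and 17 to 24 among the other matrix genes. With the replicate number of the labels as a block, 5098 genes were called, 0 of the 10 among them. Mice with the same number shared no animal, and the correlation of their deviations was over 0.1 in 5 of 11 pairs (RGLS4326 and PBS). Of the 11 treated mice, 1 was most like the PBS mouse of its own number. The numbers follow the library sets and no reference distribution was computed, so these values do not settle whether the numbers pair the mice. The lowest count of any of the 10 genes in a library was 103.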
